A study of Mus musculus with 6 samples.

Results

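The genes described here make, sense and move cholesterol. A list of 28 genes was ordered by pathway step, with 7 enzymes of the mevalonate arm, 11 enzymes that make squalene and turn it into cholesterol, 4 genes of sterol sensing, 4 of sterol transport and uptake, and 2 of esterification. A gene was measured if at least 1 feature of the array was annotated with its symbol alone, and the brightest such feature was used. By this rule 25 of the 28 genes were measured, out of 18820 genes in all. Acat2, a thiolase at the entry of the pathway, and Soat1 and Soat2, the enzymes that esterify cholesterol, had no feature of their own and were not analysed here.

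Primary hepatocytes, which are liver cells freed by perfusion and digestion and then kept in culture, were prepared from male wildtype C57BL/6J mice 8 to 10 weeks of age. The cells were grown in 60 mm dishes in medium with fetal bovine serum. Cells of 3 dishes received Ad-nuclear CREBH, an adenovirus that carries the mouse nuclear fragment of CREBH in a CMV vector, and those of 3 dishes received Ad-GFP, a control adenovirus that encodes green fluorescent protein. Both viruses were added at 100 viral particles for every cell, and RNA was collected 24 h later and read on Affymetrix Mouse Gene 1.1 ST arrays, with 1 array per dish. CREBH is a transcription factor of hepatocytes that lies in the membrane of the endoplasmic reticulum until cleavage frees its N-terminal part, so the virus supplied the form that needs no cleavage. Whether each dish held cells of its own animal is stated in neither the methods nor the labels. The p-values therefore measure only the spread between these dishes, and with 3 arrays per group that spread is itself known only roughly.

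Hepatocytes build cholesterol from acetyl-CoA through mevalonate, isoprenoid diphosphates, squalene and lanosterol. The transcription factor SREBP-2 switches most genes of this route on together. Its precursor is carried by Scap out of the endoplasmic reticulum when sterols are scarce and is held back there by Insig-1 or Insig-2 when sterols are plentiful. Cholesterol that enters the cell with lipoproteins is released from lysosomes by Npc2 and Npc1 and is passed on in the cytosol by carriers such as Stard4.

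All values are log2 expression as deposited, fold changes are Ad-nuclear CREBH minus Ad-GFP on that scale, and "rose" and "fell" mean a Benjamini-Hochberg adjusted p under 0.05 in limma over all 18820 genes. Creb3l3, which encodes CREBH, measured 9.97, 10.46 and 10.59 in Ad-nuclear CREBH dishes, against 8.49, 8.02 and 8.21 in Ad-GFP dishes (log2 fold change 2.10, SE 0.19, adjusted p = 8.98e-05), a signal to which viral and cellular transcripts may both contribute. Array medians were between 5.05 and 5.30, and arrays of 1 group correlated at 0.985 to 0.997, with Ad-GFP 1 farther from Ad-GFP 2 (0.985) and Ad-GFP 3 (0.986) than these were from each other (0.996). Of 10 measured hepatocyte markers 5 fell (Fga, Cps1, Tat, Hpx and Ahsg) and 1 rose (Apoa1), beside 18.2% and 19.2% of all genes. Alb (log2 fold change -0.01), Ttr (0.02), Apob (0.03) and Hnf4a (-0.37) did not pass. The mean level of the 10 markers was 10.17 to 10.52 in Ad-nuclear CREBH dishes and 10.70 to 11.00 in Ad-GFP dishes. Markers of other liver cells had low mean levels, in Ad-nuclear CREBH against Ad-GFP dishes 5.11 to 5.37 against 5.29 to 5.54 for 8 macrophage markers, 4.01 to 4.66 against 4.16 to 4.28 for 8 stellate cell and fibroblast markers, 5.18 to 5.40 against 4.95 to 5.25 for 8 endothelial markers and 4.58 to 4.75 against 4.25 to 4.65 for 6 cholangiocyte markers. Of these lists, 3 macrophage markers (Cd68, Cd5l and Lyz2), 1 stellate cell marker (Reln) and 1 cholangiocyte marker (Krt19) fell, and Csf1r, Egfl7 and Epcam rose. Single markers were bright despite the low means of their lists. Cd68 had group means of 10.35 with Ad-nuclear CREBH and 11.49 with Ad-GFP, and the cholangiocyte marker Sox9 had 8.65 and 8.07. The macrophage count rested on single arrays, with 0 that fell without Ad-nuclear CREBH 3, Ad-GFP 1 or Ad-GFP 2, 1 without Ad-nuclear CREBH 2 or Ad-GFP 3 and 2 without Ad-nuclear CREBH 1. The fibroblast collagen Col1a1, named after its values were seen, measured 5.02, 7.30 and 7.51 with Ad-nuclear CREBH, against 5.25, 4.90 and 4.77 with Ad-GFP (adjusted p = 0.0619), and 3 stellate cell and fibroblast markers rose without Ad-nuclear CREBH 1. The part of these shifts in the results on cholesterol genes was not tested, and in RNA from whole dishes fewer cells of a type and less RNA per cell cannot be told apart.

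Promoter windows of 250 bases before to 50 bases after each annotated start were taken from RefSeq (build GRCm38.p6) and were matched for 20 of the 25 measured genes, 26 windows in all. Fdps, Fdft1, Sqle, Stard4 and Npc1 had no window. The 250 bases before the start are shown for 5 genes because they stand for the different outcomes in the sterol pathway. Hmgcs1 and Cyp51 had the largest falls of their arms, Msmo1 fell with the smallest SE, Ebp was the enzyme that rose, and Insig1 did not pass the test. They lie at chr13:119690101-119690350 on the plus strand (Hmgcs1), chr5:4104698-4104947 on the minus strand (Cyp51), chr8:64733579-64733828 on the minus strand (Msmo1), chrX:8193513-8193762 on the minus strand (Ebp) and chr5:28071162-28071411 on the plus strand (Insig1). Each is written 5′ to 3′ in the direction of its gene, and capitals mark matches on either strand to the sterol regulatory element, its shorter form, the NF-Y box or the E-box.
Hmgcs1: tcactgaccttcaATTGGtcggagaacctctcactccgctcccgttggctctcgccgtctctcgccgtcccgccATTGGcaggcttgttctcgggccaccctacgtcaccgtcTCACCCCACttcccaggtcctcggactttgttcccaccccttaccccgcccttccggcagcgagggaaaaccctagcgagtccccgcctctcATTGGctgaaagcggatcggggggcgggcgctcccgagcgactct
Cyp51: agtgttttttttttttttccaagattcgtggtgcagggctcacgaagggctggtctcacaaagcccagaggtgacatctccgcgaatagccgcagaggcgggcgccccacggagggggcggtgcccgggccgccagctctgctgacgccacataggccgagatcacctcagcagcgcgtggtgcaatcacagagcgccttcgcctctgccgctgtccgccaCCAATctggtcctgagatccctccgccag
Msmo1: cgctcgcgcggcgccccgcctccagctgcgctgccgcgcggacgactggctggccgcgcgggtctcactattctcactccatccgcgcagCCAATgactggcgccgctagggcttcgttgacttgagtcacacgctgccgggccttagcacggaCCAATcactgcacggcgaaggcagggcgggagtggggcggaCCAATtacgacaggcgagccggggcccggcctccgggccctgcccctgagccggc
Ebp: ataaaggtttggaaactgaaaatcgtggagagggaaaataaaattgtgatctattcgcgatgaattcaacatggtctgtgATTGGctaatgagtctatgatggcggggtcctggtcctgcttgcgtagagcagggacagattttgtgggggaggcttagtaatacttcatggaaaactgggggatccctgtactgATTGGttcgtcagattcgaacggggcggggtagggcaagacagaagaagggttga
Insig1: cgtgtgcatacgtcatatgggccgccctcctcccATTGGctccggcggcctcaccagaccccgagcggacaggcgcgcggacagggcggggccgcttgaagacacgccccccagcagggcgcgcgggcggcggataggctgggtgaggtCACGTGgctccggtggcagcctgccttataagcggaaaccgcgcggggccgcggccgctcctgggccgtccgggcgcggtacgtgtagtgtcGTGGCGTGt

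The NF-Y box, CCAAT, is bound by the factor NF-Y, a known partner of SREBP at sterol gene promoters. It was present in a window of 19 of the 20 genes, all but Scap, whereas 41.9% of the 14749 measured genes with a window held it in at least 1 of theirs. Mvk had 5 matches, Hmgcs1 and Nsdhl had 4 each, and Hsd17b7, Msmo1 and Insig2 had 3 each, and of those in Hmgcs1 1 lies after the start and so outside the stretch shown. The classical sterol regulatory element, TCACNCCAC, was found in 1 gene, Hmgcs1, at -137 to -129 from the start, and in 1.42% of measured genes. Its shorter form CACNCCAC, which the longer one contains, was found in Hmgcs1 and Insig1 and in 7.32% of measured genes. The E-box CACGTG was found in Hsd17b7, Sc5d, Dhcr7, Scap and Insig1, and in 9.57% of measured genes. Neither of the longer elements searched for factors of the CREB type, TGACGTCA (2.77% of measured genes) and TGACGTG (2.6%), was in any of the 20 genes, and the pentamer TGACG that both contain was in 10 of the 20 and in 28.1% of measured genes. NF-Y boxes were held by Ebp, the only gene with a window that rose, and by genes that fell and genes that did not pass. Scap, which fell, held none. A match describes the letters of a window and is not evidence of binding.

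**Figure D1:**
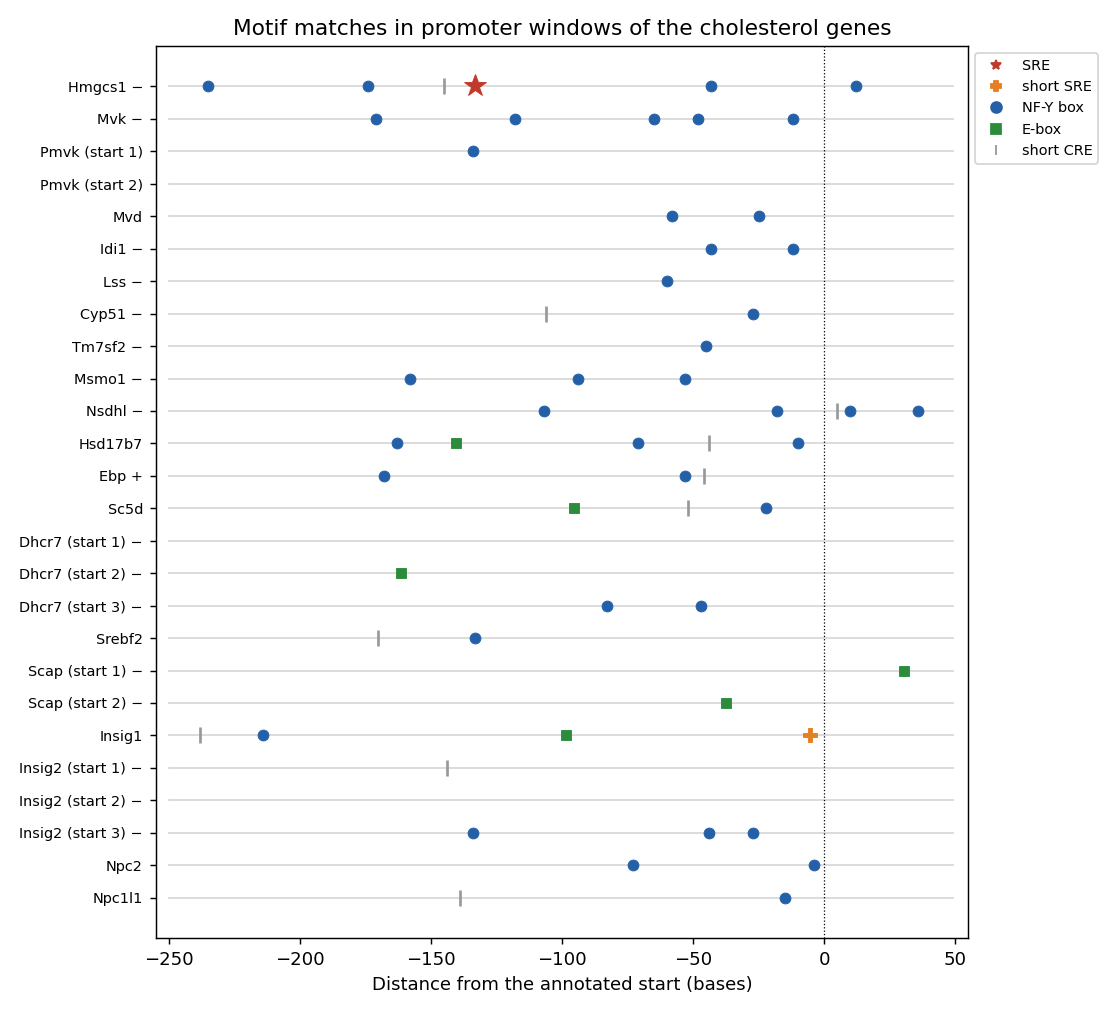
Motif matches on either strand in the 26 promoter windows of 20 measured cholesterol genes, by distance in bases from the annotated start (dotted line). A minus sign after a name marks a gene that fell in Ad-nuclear CREBH hepatocytes and a plus sign Ebp, the only gene shown that rose. A star is the sterol regulatory element (SRE), which contains its shorter form, gray ticks are the pentamer TGACG (short CRE), and genes with several annotated starts have a line for each. NF-Y boxes stand in 19 of the 20 genes.

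Most enzymes of cholesterol synthesis were expressed at lower levels in Ad-nuclear CREBH hepatocytes, whereas 2 of the 4 genes of transport and uptake rose. Of the 25 measured genes 13 fell, where 18.2% of all genes fell, and 3 rose, where 19.2% of all genes rose. The genes that rose were Ebp, Stard4 and Npc1. The median log2 fold change of the 25 genes was -0.75, against 0.039 over all genes, whose quartiles were -0.29 and 0.29. In 17 genes every Ad-nuclear CREBH array lay below every Ad-GFP array, as 23.1% of all genes did, and in 3 genes every one lay above, as 26.2% of all genes did. Under the stricter criteria of the study (unadjusted p under 0.001, more than 2-fold higher or under 0.5 of the control, and a group mean over 300 on the linear scale) 11 of the 25 genes were lower, as were 3.1% of all genes, and 3 were higher, as were 4.91% of all genes. A linear mean over 300 in at least 1 group was reached by 20 of the 25 genes, and not by Mvk, Pmvk, Mvd, Npc2 and Npc1l1. The values carry no flag for background. Of these genes only Npc1l1 lay below the median gene (5.247 in Ad-GFP), and the fold change of so dim a gene may be understated.

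**Figure D2:**
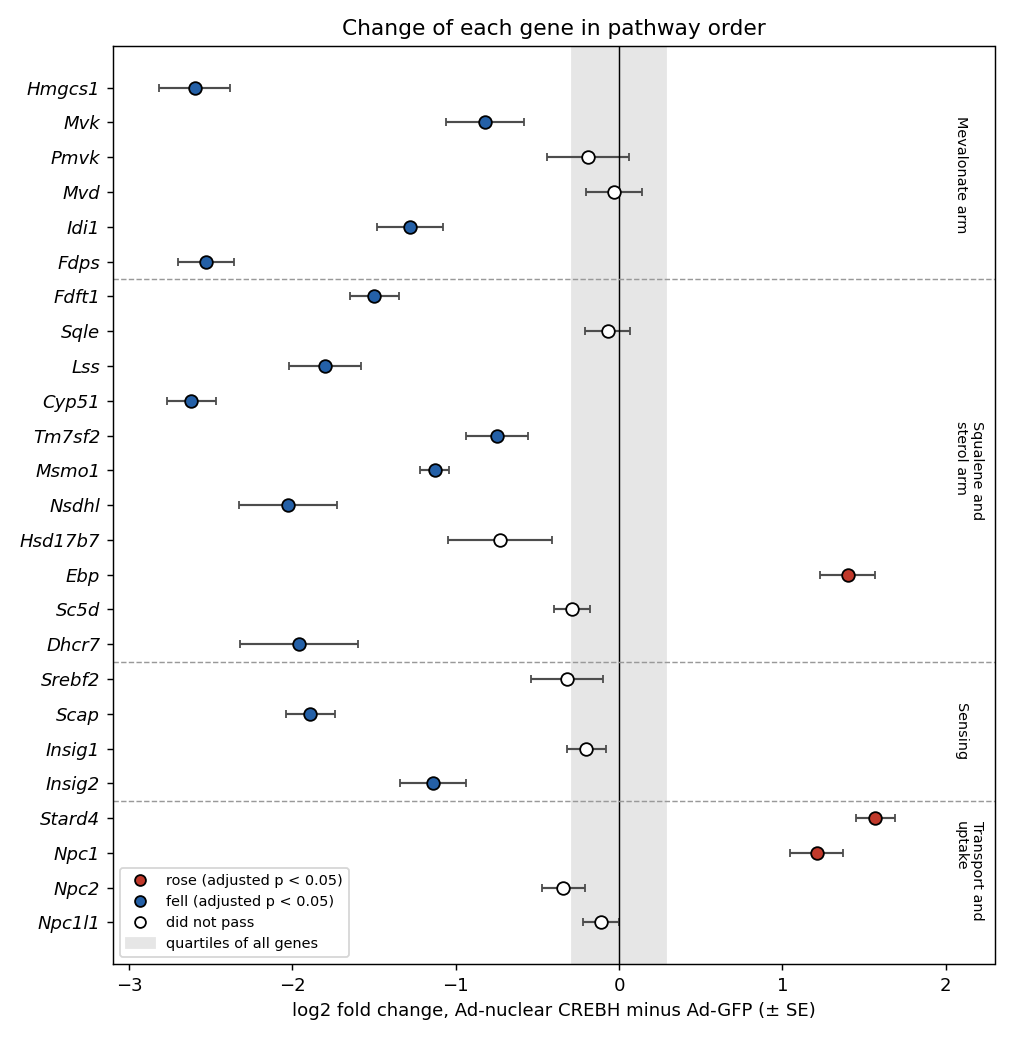
Log2 fold change (Ad-nuclear CREBH minus Ad-GFP, 3 arrays each) of the 25 measured genes in pathway order, with bars of 1 SE from limma. Blue points fell and red points rose at an adjusted p under 0.05, white points did not pass, and the gray band spans the quartiles of all genes. Of the 17 enzymes above the second dashed line, 11 points are blue and 1 is red.

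The mevalonate arm leads from acetyl-CoA to farnesyl diphosphate, and 4 of its 6 measured enzymes fell, with none that rose. The shares of all genes were 18.2% that fell and 19.2% that rose. Hmgcs1, the cytosolic synthase that makes HMG-CoA and whose promoter above carries the sterol regulatory element, measured 7.50, 7.82 and 7.86 in Ad-nuclear CREBH dishes, against 9.83, 10.62 and 10.52 in Ad-GFP dishes. This was a 6.05-fold lower level (log2 fold change -2.60, SE 0.22, adjusted p = 6.46e-05), with a gap of more than 1 log2 unit between the groups. Fdps, which joins isoprenoid units into farnesyl diphosphate at the end of the arm, measured 6.48, 6.37 and 6.48 with Ad-nuclear CREBH, against 8.63, 9.13 and 9.17 with Ad-GFP. It was 5.79-fold lower (log2 fold change -2.53, SE 0.17, adjusted p = 2.88e-05), and its Ad-nuclear CREBH values were nearly identical. Idi1, the isomerase that interconverts the isoprenoid units Fdps joins, measured 8.54, 8.48 and 8.53 in Ad-nuclear CREBH dishes, against 9.31, 10.00 and 10.07 in Ad-GFP dishes. Its log2 fold change was -1.28 (SE 0.20, adjusted p = 0.00134), and a second feature of Idi1 differed by -1.32.

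The kinases and the decarboxylase between Hmgcs1 and Idi1 moved less. Mvk, mevalonate kinase, measured 5.43, 5.56 and 5.85 with Ad-nuclear CREBH, against 5.92, 6.76 and 6.64 with Ad-GFP, so that the highest Ad-nuclear CREBH array lay just under the lowest Ad-GFP array. It fell (log2 fold change -0.82, SE 0.24, adjusted p = 0.0288), but not without Ad-nuclear CREBH 1 (-0.73, adjusted p = 0.087), Ad-nuclear CREBH 2 (-0.80, 0.0895), Ad-GFP 2 (-0.66, 0.101) or Ad-GFP 3 (-0.72, 0.0977). Pmvk, the kinase of the next step, measured 7.75, 7.67 and 7.65 in Ad-nuclear CREBH dishes, against 7.26, 8.25 and 8.12 in Ad-GFP dishes. The single array Ad-GFP 1 lay below all Ad-nuclear CREBH arrays and Ad-GFP 2 and Ad-GFP 3 above them. The log2 fold change of Pmvk was -0.19 (SE 0.25, adjusted p = 0.613) and became -0.50 (adjusted p = 0.00824) without Ad-GFP 1. Mvd, which makes isopentenyl diphosphate, measured 6.07, 6.21 and 6.16 with Ad-nuclear CREBH, against 5.87, 6.40 and 6.24 with Ad-GFP. Its groups overlapped (log2 fold change -0.03, SE 0.17, adjusted p = 0.928), and the sign of its difference changed with the scaling of the arrays.

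The sterol arm begins with squalene, the first product committed to sterols. Of its 11 enzymes 7 fell and 1 rose, where 18.2% of all genes fell and 19.2% rose. Fdft1, squalene synthase, measured 8.86, 8.90 and 8.78 in Ad-nuclear CREBH dishes, against 10.03, 10.56 and 10.45 in Ad-GFP dishes, and was 2.83-fold lower (log2 fold change -1.50, SE 0.15, adjusted p = 0.000141). Sqle, the epoxidase of the next step, stood apart from its neighbors. It measured 9.74, 9.61 and 9.54 with Ad-nuclear CREBH, against 9.43, 9.85 and 9.80 with Ad-GFP, and the groups overlapped (log2 fold change -0.07, SE 0.14, adjusted p = 0.749). Without both arrays numbered 1 Sqle passed the test (-0.25, adjusted p = 0.00628). Lss, which closes the rings to form lanosterol, measured 7.25, 7.15 and 7.32 in Ad-nuclear CREBH dishes, against 8.53, 9.34 and 9.24 in Ad-GFP dishes. It was 3.47-fold lower (log2 fold change -1.80, SE 0.22, adjusted p = 0.000356), with all Ad-nuclear CREBH arrays below all Ad-GFP arrays.

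Cyp51, the cytochrome P450 that demethylates lanosterol, had the largest fall of the 25 genes. It measured 7.60, 7.87 and 7.75 in Ad-nuclear CREBH dishes, against 10.07, 10.53 and 10.49 in Ad-GFP dishes, a 6.16-fold lower level (log2 fold change -2.62, SE 0.15, adjusted p = 2.2e-05) that ranked 237 among the differences of all 18820 genes from the lowest up. Msmo1, which starts the removal of the methyl groups at carbon C-4, measured 10.15, 10.35 and 10.31 with Ad-nuclear CREBH, against 11.37, 11.50 and 11.34 with Ad-GFP. Both groups were tight, and Msmo1 fell by 1.13 on the log2 scale (SE 0.09, adjusted p = 6.01e-05). Nsdhl, the dehydrogenase that follows Msmo1, measured 7.50, 8.24 and 8.34 in Ad-nuclear CREBH dishes, against 9.45, 10.41 and 10.32 in Ad-GFP dishes. The lowest array of each group was number 1, the groups did not overlap, and the log2 fold change was -2.03 (SE 0.30, adjusted p = 0.0011). Hsd17b7, the ketoreductase that completes each round of this demethylation, measured 6.69, 7.93 and 7.95 with Ad-nuclear CREBH, against 8.14, 8.44 and 8.20 with Ad-GFP. Its groups did not overlap, but most of the difference lay in the array Ad-nuclear CREBH 1. The log2 fold change was -0.73 (SE 0.32, adjusted p = 0.116), and -0.32 (adjusted p = 0.128) without that array. Without both arrays numbered 1 Hsd17b7 passed the test (-0.38, adjusted p = 0.00949).

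Tm7sf2, a sterol reductase of the step after Cyp51, measured 7.61, 7.38 and 7.49 in Ad-nuclear CREBH dishes, against 7.85, 8.53 and 8.36 in Ad-GFP dishes, with no overlap. It fell (log2 fold change -0.75, SE 0.19, adjusted p = 0.0144), although not without Ad-nuclear CREBH 2 (-0.70, adjusted p = 0.0614), Ad-nuclear CREBH 3 (-0.75, 0.051), Ad-GFP 2 (-0.61, 0.055) or Ad-GFP 3 (-0.70, 0.0556). Ebp, the isomerase that shifts a double bond of the sterol ring, went the other way. It measured 10.50, 10.26 and 10.33 with Ad-nuclear CREBH, against 8.59, 9.06 and 9.25 with Ad-GFP, a 2.63-fold higher level (log2 fold change 1.40, SE 0.17, adjusted p = 0.000422), and all Ad-nuclear CREBH arrays lay more than 1 log2 unit above every Ad-GFP array. Sc5d, the desaturase that follows Ebp, measured 10.53, 10.87 and 10.78 in Ad-nuclear CREBH dishes, against 10.94, 11.07 and 11.06 in Ad-GFP dishes. Its groups did not overlap and lay close together (log2 fold change -0.29, SE 0.11, adjusted p = 0.0669), and it passed the test under 7 of 16 alternatives, among them without Ad-GFP 1 (-0.34, adjusted p = 0.0427), after quantile normalization (-0.44, 0.00887) and after cyclic loess (-0.47, 0.00933), but not with centred arrays (-0.15, 0.259). Dhcr7, the reductase that makes cholesterol from 7-dehydrocholesterol, measured 6.89, 7.33 and 7.50 with Ad-nuclear CREBH, against 8.30, 9.64 and 9.66 with Ad-GFP. It was 3.89-fold lower (log2 fold change -1.96, SE 0.36, adjusted p = 0.00328), with the widest spread between Ad-GFP arrays of the 25 genes, 1.36.

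**Figure D3:**
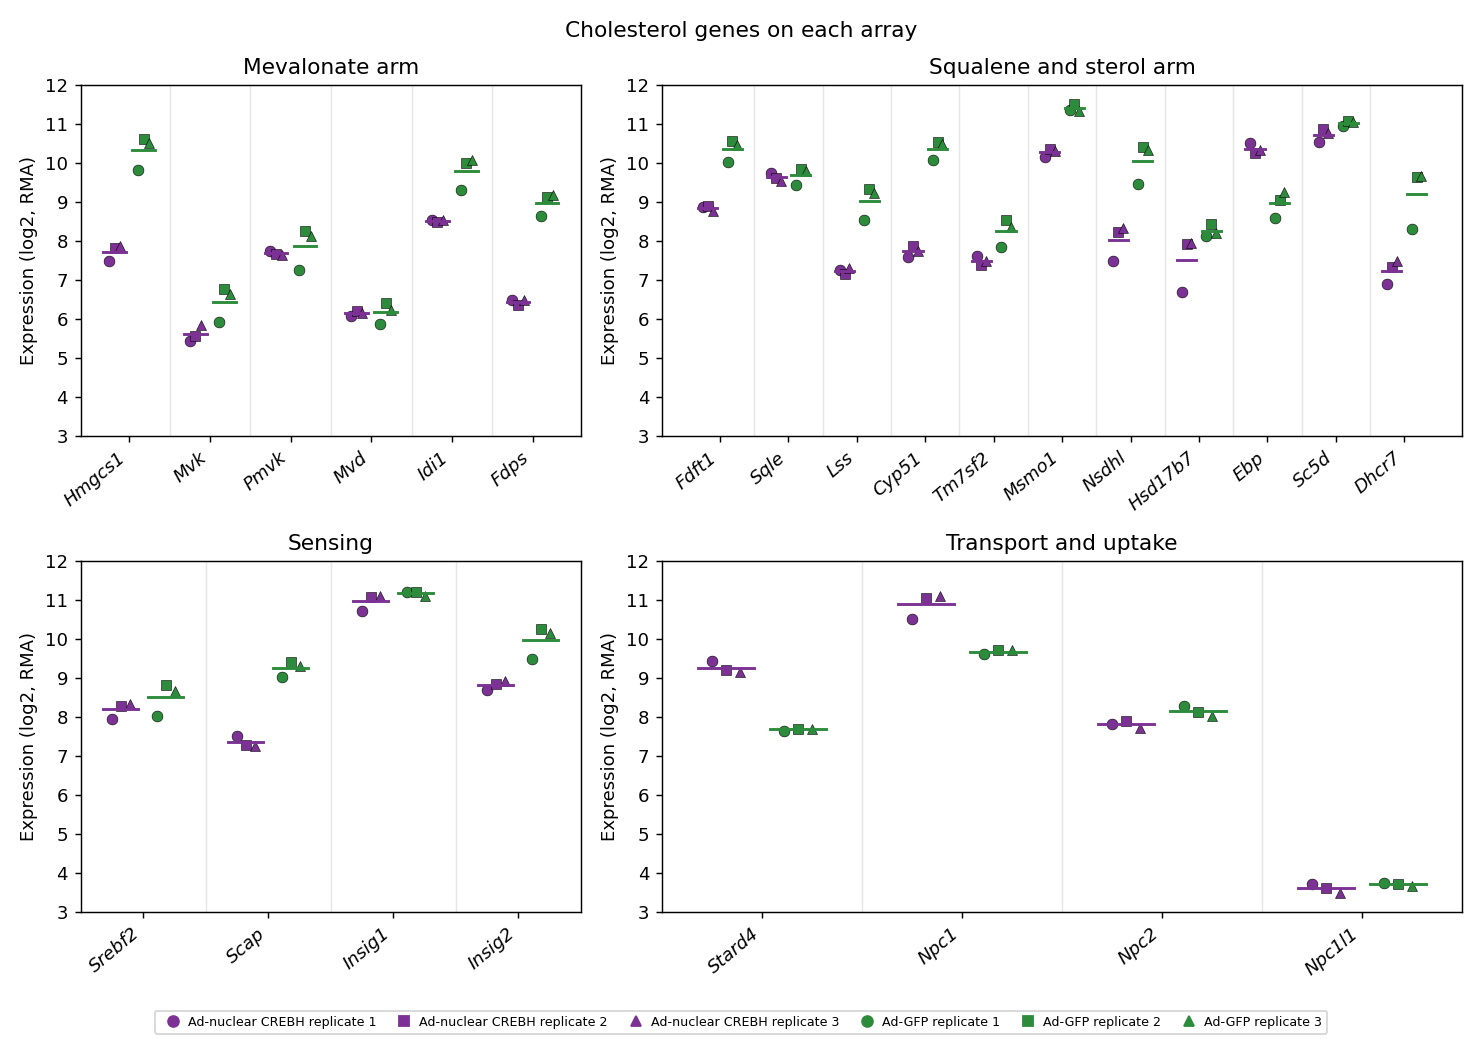
Log2 expression of the 25 measured genes on each array, by pathway step, with Ad-nuclear CREBH arrays in purple at the left and Ad-GFP arrays in green at the right of each gene, marker shapes for the replicate number and lines at the group means (n = 3). Cyp51 lies at 7.60 to 7.87 with Ad-nuclear CREBH and at 10.07 to 10.53 with Ad-GFP, and Stard4 at 9.14 to 9.42 and at 7.64 to 7.69.

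Within the control group most enzymes were lower together on 1 array, Ad-GFP 1, while Ad-GFP 2 and Ad-GFP 3 lay close to each other. Over all genes Ad-GFP 1 also stood apart, with correlations of 0.985 and 0.986 to these 2 arrays, against 0.996 between them. Ad-GFP 1 was the lowest array of its group for 16 of the 17 measured enzymes, the exception being Msmo1, and for 45.4% of all genes. Relative to the mean of the Ad-GFP arrays, the median over the 17 enzymes was -1.26, -1.05 and -1.09 on the Ad-nuclear CREBH arrays and -0.38, 0.21 and 0.19 on the Ad-GFP arrays. The spread among Ad-GFP dishes was wide for these genes. The range over the Ad-nuclear CREBH arrays had a median of 0.22 for the enzymes, against 0.28 for all genes, and the range over the Ad-GFP arrays had a median of 0.66 for the enzymes, against 0.31 for all genes and 0.33 for genes with a linear mean over 300. Without Ad-GFP 1 16 of the 25 genes fell in place of 13, while the share of all genes that fell became 21.5% in place of 18.2%. Without both arrays numbered 1, a choice made after this spread was seen, 19 of the 25 genes and 25.3% of all genes fell. The genes that rose numbered 3 in both cases.

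**Figure D4:**
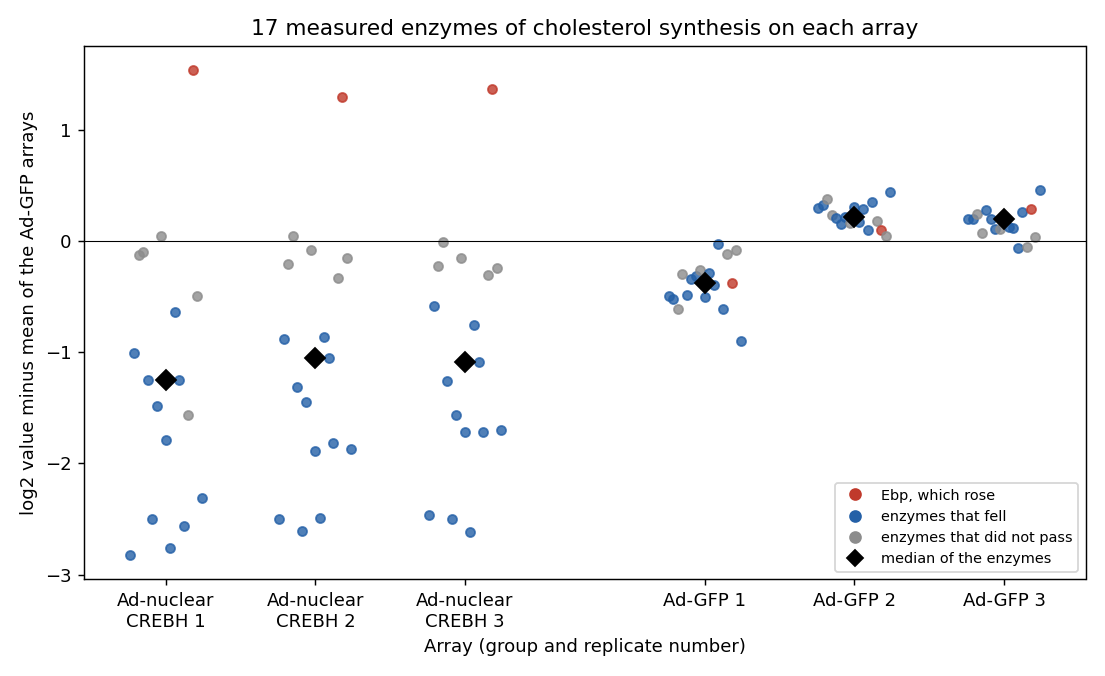
The 17 measured enzymes on each array as the log2 value minus the mean of the Ad-GFP arrays (line at 0), with black diamonds at the median of the enzymes. The medians lie at -1.26, -1.05 and -1.09 on the Ad-nuclear CREBH arrays and at -0.38, 0.21 and 0.19 on the Ad-GFP arrays, where array 1 lies lowest.

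Of the 4 sensing genes, Scap and Insig2 fell, beside 18.2% of all genes, and Srebf2 and Insig1 did not pass. Scap, the escort of the SREBP precursors, measured 7.51, 7.28 and 7.25 in Ad-nuclear CREBH dishes, against 9.02, 9.39 and 9.30 in Ad-GFP dishes. It was 3.71-fold lower (log2 fold change -1.89, SE 0.15, adjusted p = 4.74e-05), and the groups were far apart. A second, dim feature of Scap measured 3.98 and 4.05 as group means, and averaged over both features the log2 fold change was -0.98 (adjusted p = 0.00198). Srebf2, which encodes SREBP-2 itself, measured 7.95, 8.28 and 8.33 with Ad-nuclear CREBH, against 8.03, 8.82 and 8.66 with Ad-GFP. Ad-GFP 1 lay among the Ad-nuclear CREBH values, and the log2 fold change was -0.32 (SE 0.22, adjusted p = 0.314), or -0.56 (adjusted p = 0.018) without that array. These are transcript levels, and the cleavage that activates SREBP-2 was not measured on the arrays.

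The related retention proteins Insig-1 and Insig-2 differed in their values. Insig2 measured 8.69, 8.83 and 8.92 in Ad-nuclear CREBH dishes, against 9.47, 10.25 and 10.14 in Ad-GFP dishes, and fell by 1.14 on the log2 scale (SE 0.20, adjusted p = 0.00269) with no overlap. Insig1, a target of SREBP-2 whose promoter is shown above, measured 10.70, 11.07 and 11.10 with Ad-nuclear CREBH, against 11.19, 11.19 and 11.10 with Ad-GFP. All but Ad-nuclear CREBH 1 lay close together, the log2 fold change was -0.20 (SE 0.12, adjusted p = 0.227), and it passed the test after quantile normalization of the arrays (-0.34, adjusted p = 0.0422) or cyclic loess (-0.38, 0.0283). The difference Insig2 minus Insig1 on the same array was -2.02, -2.24 and -2.18 with Ad-nuclear CREBH, against -1.72, -0.95 and -0.96 with Ad-GFP. Its means differed by -0.94 between the groups (SDs 0.12 and 0.44, n = 3 each), and the two-sided exact permutation test gave p = 0.1, the smallest value that 3 against 3 arrays allow.

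Of the 4 genes of transport and uptake, Stard4 and Npc1 rose and none fell, where 19.2% of all genes rose and 18.2% fell. Stard4, a cytosolic carrier that moves cholesterol between membranes, measured 9.42, 9.19 and 9.14 in Ad-nuclear CREBH dishes, against 7.64, 7.69 and 7.69 in Ad-GFP dishes. It was 2.98-fold higher (log2 fold change 1.57, SE 0.12, adjusted p = 4.87e-05), the largest rise of the 25 genes, and its Ad-GFP arrays differed by 0.05 at most. Npc1, the membrane protein that exports cholesterol from lysosomes, measured 10.50, 11.05 and 11.09 with Ad-nuclear CREBH, against 9.60, 9.71 and 9.70 with Ad-GFP. The group means differed 2.32-fold (log2 fold change 1.21, SE 0.16, adjusted p = 0.000583), and every Ad-nuclear CREBH array lay above every Ad-GFP array. Npc2, the soluble protein that hands cholesterol to Npc1, measured 7.82, 7.88 and 7.71 in Ad-nuclear CREBH dishes, against 8.27, 8.13 and 8.03 in Ad-GFP dishes. The groups did not overlap, and the log2 fold change was -0.34 (SE 0.13, adjusted p = 0.0748). Npc2 passed the test as lower without the intensity trend (-0.34, adjusted p = 0.0493), with array weights (-0.29, 0.036) and without both arrays numbered 1 (-0.29, 0.0285). Npc1l1, the importer that ezetimibe blocks, was dim on all arrays, at 3.70, 3.61 and 3.49 with Ad-nuclear CREBH and 3.75, 3.72 and 3.66 with Ad-GFP (log2 fold change -0.11, SE 0.11, adjusted p = 0.514).

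The partners of these genes were described from lists compiled for the purpose, with earlier results of these data known. Counts from these lists beside the shares of all genes are therefore descriptive and not a test. Among 17 measured genes of SREBP processing and of the turnover of sterol regulators, 7 rose (Srebf1, Rnf139, Rnf145, Ufd1, Sec23a, Sec24a and Sec24d) and 1 fell (Erlin2), with a median log2 fold change of 0.37. Among all genes 19.2% rose and 18.2% fell. Leaving out 1 array gave 6 to 9 that rose and 1 to 3 that fell. The SREBP protease Mbtps1 had group means of 7.27 with Ad-nuclear CREBH and 8.06 with Ad-GFP, with no overlap. It did not pass (log2 fold change -0.79, SE 0.27, adjusted p = 0.0514), and the other protease listed, Mbtps2, was not measured. Sec24a, a coat protein of the vesicles in which Scap and other cargo leave the endoplasmic reticulum, measured 10.42, 11.03 and 11.04 in Ad-nuclear CREBH dishes, against 8.74, 8.82 and 9.20 in Ad-GFP dishes (log2 fold change 1.91, SE 0.20, adjusted p = 0.000165). Its relative Sec24d rose by 1.88 on the log2 scale (SE 0.13, adjusted p = 3.35e-05). Rnf145, an E3 ligase of the endoplasmic reticulum, measured 8.12, 8.04 and 8.04 with Ad-nuclear CREBH, against 6.22, 6.30 and 6.59 with Ad-GFP (1.69, SE 0.15, adjusted p = 7.51e-05). For Sec24a, Sec24d and Rnf145 every Ad-nuclear CREBH array lay above every Ad-GFP array, as in 26.2% of all genes. These 3 genes were picked as the largest changes of their list, so their separation is no added support.

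Among 18 measured genes for other sterol carriers and lipoprotein receptors, 7 rose (Osbp, Stard5, Gramd1a, Gramd1b, Gramd1c, Lipa and Tmem97) and 2 fell (Lrp1 and Sort1), with a median log2 fold change of 0.32, beside 19.2% and 18.2% of all genes. The number that rose was 4 without Ad-nuclear CREBH 2 or 3 and 5 to 8 without any other single array, and the number that fell was 1 to 3. Gramd1c, of the family that carries cholesterol from the plasma membrane to the endoplasmic reticulum, measured 9.98, 9.93 and 10.03 in Ad-nuclear CREBH dishes, against 7.49, 7.19 and 7.51 in Ad-GFP dishes (log2 fold change 2.58, SE 0.13, adjusted p = 1.81e-05). Stard5, a relative of Stard4, measured 10.22, 10.36 and 10.35 with Ad-nuclear CREBH, against 8.80, 8.36 and 8.54 with Ad-GFP (1.74, SE 0.13, adjusted p = 4.44e-05). The arrays of both genes separated by group with a gap of more than 1 log2 unit. Both were picked for the size of their change, so the gap is no added support. Sort1, a sorting receptor, measured 5.18, 6.23 and 5.85 in Ad-nuclear CREBH dishes, against 6.12, 7.33 and 7.32 in Ad-GFP dishes, and Ad-GFP 1 lay within the range of the Ad-nuclear CREBH arrays. Its log2 fold change was -1.17 (SE 0.38, adjusted p = 0.0421) and did not pass without Ad-nuclear CREBH 1 (-0.89, adjusted p = 0.132), Ad-nuclear CREBH 3 (-1.22, 0.0904), Ad-GFP 2 (-0.97, 0.131) or Ad-GFP 3 (-0.97, 0.131).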

How the data were processed

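Expression was measured in 3 Ad-nuclear CREBH and 3 Ad-GFP dishes, grouped by the sample labels. The authors deposited RMA values on a log2 scale, that is, background-corrected, normalized between arrays and summarized over probes. No RMA version is given in the sources used here, and RMA compresses the fold changes of dim genes. The values were used as deposited. Of 35556 features 21218 carried 1 gene symbol in the platform annotation, 1881 several and 12457 none. For each of 18820 genes the brightest single-symbol feature was used.

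Linear models (lmFit, eBayes with an intensity trend) were fitted over all genes in R 4.3.3 with limma 3.58.1, with 4 residual degrees of freedom, a prior of 3.97 and Benjamini-Hochberg adjustment, and were tested on simulated data. The study's criteria used the same fit. Alternatives changed array weights, the intensity trend, the replicate block, the scaling, the features per gene, the expression filter and the arrays included. Values are given for the measured genes of the list, for Creb3l3 and for up to 3 genes per further list with the largest change at an adjusted p under 0.05, and the other genes of those lists that passed are named only. Col1a1, Sox9, Mbtps1 and the hepatocyte markers that did not pass were added after their values were seen. Members and lists were chosen with earlier results of these data known. Promoter windows were RefSeq's, counted with the start as position 0. Figures were drawn with matplotlib 3.10.9.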

Additional observations from a re-analysis of the deposited data

Results flagged for a closer look

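A feature outside the comparisons above carried a signal of the opposite sign. Besides the feature used for Fdft1, 2 further features were annotated with Fdft1 and Ctsb together and were left out because they do not name 1 gene. One of them had group means of 8.85 with Ad-nuclear CREBH and 10.29 with Ad-GFP, a log2 difference of -1.43 that lies close to the -1.50 of the Fdft1 feature. The other had group means of 12.37 with Ad-nuclear CREBH and 12.07 with Ad-GFP, a log2 difference of 0.31. Which of the 2 genes each feature reads was not tested.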

How the results depend on the processing

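The number of genes that rose was 3 under each of 16 alternatives. The number that fell was 13 in the fit reported and 11 to 16 when 1 array was left out, 17 with array weights, 15 after quantile normalization or cyclic loess and 14 without the intensity trend. Of the 16 genes that passed, 14 kept their call under every alternative (all but Mvk and Tm7sf2), and 0 changed sign. Centring the arrays on their medians shifted all genes, whose median became 0.18 on the log2 scale, with 4814 genes that rose and 2852 that fell in place of 3615 and 3427, and left 3 cholesterol genes up and 13 down. Genes that did not pass changed sign as follows. Mvd was 0.12 with centred arrays, 0.13 after quantile normalization, 0.14 after cyclic loess and -0.18 to 0.09 when 1 array was left out. Sqle was 0.07 with centred arrays and -0.20 to 0.01 when 1 array was left out, and Npc1l1 was 0.03 with centred arrays. Testing only genes with a linear mean over 300 left 1861 genes that rose and 1468 that fell, because fewer genes were tested, and the median of the cholesterol genes was then -1.14. Insig2 minus Insig1 was -1.19 to -0.81 when 1 array was left out. With the replicate block 14 genes fell, Sc5d (-0.29, adjusted p = 0.0228) being added, as it also was with array weights (-0.26, 0.0175), among genes over 300 (-0.29, 0.0447) and without both arrays numbered 1 (-0.24, 0.00413). Same-numbered arrays deviated from their group means with correlations of 0.178, 0.073 and 0.139, and not every array correlated best with its own number, so the numbers were not taken to pair the dishes. The comparison of Soat2 with Soat1 was not run, since neither gene was measured. Limits are the 3 arrays per group, which may be technical replicates, and dim genes, of which Npc1l1 lay below the median gene.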

Other observations

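Genes that remove cholesterol or sense oxysterols moved in both directions. The 2 lists used in this section were also compiled with earlier results of these data known, so their counts are descriptive. Of 11 measured genes of sterol efflux and the nuclear receptor LXR, 6 rose (Rxra, Abca1, Abcg1, Mylip, Ch25h and Cyp27a1) and 4 fell (Nr1h3, Abcg5, Abcg8 and Cyp7b1), with a median log2 fold change of 0.61. Among all genes 19.2% rose and 18.2% fell. The 4 that fell did not reach a linear mean over 300 in either group. When only genes over 300 were tested, 4 genes of the list remained, of which 3 rose and 0 fell. Leaving out 1 array gave 5 to 6 that rose and 3 to 4 that fell. Cyp7b1, an oxysterol hydroxylase of bile acid synthesis, measured 5.93, 5.57 and 5.69 in Ad-nuclear CREBH dishes, against 7.31, 8.77 and 8.55 in Ad-GFP dishes (log2 fold change -2.48, SE 0.35, adjusted p = 0.000877 by limma). Cyp27a1, the mitochondrial sterol hydroxylase of the same route, measured 10.67, 10.00 and 9.95 with Ad-nuclear CREBH, against 8.59, 9.02 and 9.31 with Ad-GFP (1.23, SE 0.24, adjusted p = 0.00414). Both genes separated by group, in opposite directions, as 26.2% of all genes did upward and 23.1% downward. They were picked as large changes of their list, so the separation is no added support. Abcg5, which pairs with Abcg8 to export sterols into bile, was dim and lower in Ad-nuclear CREBH dishes, at 3.72, 3.88 and 3.52, against 4.66, 5.39 and 4.95 in Ad-GFP dishes (-1.30, SE 0.21, adjusted p = 0.00153).

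The pathway branches at farnesyl diphosphate into dolichol, ubiquinone and protein prenylation. Of 10 measured genes of these branches 4 rose (Pdss2, Dhdds, Nus1 and Fntb) and 2 fell (Fnta and Coq2), with a median log2 fold change of 0.23, beside 19.2% and 18.2% of all genes, so that the share that fell was near that of all genes. It was 1 gene without Ad-nuclear CREBH 2, Ad-nuclear CREBH 3, Ad-GFP 2 or Ad-GFP 3. Dhdds, which with Nus1 makes the dolichol chain for protein glycosylation, measured 9.83, 10.05 and 10.05 in Ad-nuclear CREBH dishes, against 8.87, 8.91 and 9.08 in Ad-GFP dishes (1.02, SE 0.12, adjusted p = 0.00028 by limma). The subunits of farnesyltransferase differed in direction. Fntb measured 7.37, 7.62 and 7.38 with Ad-nuclear CREBH, against 5.93, 6.41 and 6.41 with Ad-GFP (1.21, SE 0.18, adjusted p = 0.00106), and Fnta measured 7.38, 7.86 and 7.69 with Ad-nuclear CREBH, against 8.28, 8.58 and 8.57 with Ad-GFP (-0.83, SE 0.17, adjusted p = 0.00474). Neither gene overlapped between the groups, but both were picked for the size of their change.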
